A study of Mus musculus with 6 samples.

Results

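A set of 6 neutrophil-attracting chemokine and growth factor genes were followed in colonic macrophages (MΦs): *Cxcl1*, *Cxcl2*, *Cxcl3*, *Cxcl5*, *Csf3* and *Csf1*. They were taken by gene symbol from the 14097 genes of the RNA-seq table, and all 6 were listed. The set was chosen with earlier results of these data known, by a rule that uses no measured value. RNA was sequenced from P3/P4 MΦs of the colonic lamina propria, sorted as CD45+CD11b+ cells with intermediate CD11c that were CD64+ and MHCII+ and lacked CD103 and Ly6C, from untreated mice of the 129SvEv strain. The 6 libraries were 1 per group: *Il10rb*+/- and *Il10rb*-/- mice at 1, 3 and 12 weeks of age. The 3- and 12-week libraries each came from 1 mouse and the 1-week libraries from pooled mice. *Il10rb* encodes the β chain of the IL-10 receptor, and its loss was constitutive and in all cells, so a difference in MΦs can come with differences in any other cell of the mouse. The heterozygous littermates served as controls, and no group had 2 intact alleles.

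CXCL1, CXCL2, CXCL3 and CXCL5 are small secreted CXC chemokines with an ELR motif, and in the mouse they attract neutrophils through the receptor CXCR2. G-CSF, encoded by *Csf3*, drives the production of neutrophils in the bone marrow and their release into blood. M-CSF, encoded by *Csf1*, is a survival and differentiation factor of monocytes and MΦs rather than of neutrophils. Expression of these genes in myeloid cells is induced through NF-κB by microbial products and by cytokines such as IL-1, and IL-10 is known to restrain such induction.

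The 4 chemokine genes lie on chromosome 5 of GRCm38, all on the + strand. *Cxcl5* (ENSMUSG00000029371) is at 90759360-90761624, *Cxcl3* (ENSMUSG00000029379) at 90786103-90789600, *Cxcl1* (ENSMUSG00000029380) at 90891241-90893115 and *Cxcl2* (ENSMUSG00000058427) at 90903871-90905938. *Csf3* (ENSMUSG00000038067) is on chromosome 11 at 98701263-98703629 on the + strand, and *Csf1* (ENSMUSG00000014599) on chromosome 3 at 107741048-107760469 on the - strand. No other annotated gene overlapped any of the 6 on either strand. Of the 75-base windows in the annotated transcripts, 101 were shared by *Cxcl2* and *Cxcl3*. They made up 4.57% of the windows of *Cxcl2* and 2.78% of those of *Cxcl3*, so a small part of the reads of these genes could not be assigned to 1 of them by sequence. *Cxcl1*, *Csf3* and *Csf1* shared no window with another gene.

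Promoter sequences from RefSeq (GRCm38.p6) were given for 4 of the 6 genes, *Cxcl1*, *Cxcl2*, *Cxcl3* and *Csf1*. The stretches of the 3 clustered chemokines are shown because they carry the same 10-base NF-κB motif next to a TATA-like motif, while their RNA levels differed widely. Capitals mark GGGAATTTCC and ATAAAAG, and each stretch runs 5′ to 3′ on the + strand, at chr5:90891159-90891228 for *Cxcl1*, chr5:90903787-90903856 for *Cxcl2* and chr5:90786013-90786082 for *Cxcl3*.
Cxcl1: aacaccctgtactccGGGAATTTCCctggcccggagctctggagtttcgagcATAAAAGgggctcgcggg
Cxcl2: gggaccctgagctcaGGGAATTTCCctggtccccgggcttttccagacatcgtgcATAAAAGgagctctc
Cxcl3: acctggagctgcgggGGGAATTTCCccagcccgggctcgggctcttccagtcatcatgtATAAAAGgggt

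GGGAATTTCC began 71 bases before the transcription start of *Cxcl1*, 97 before that of *Cxcl2* and 73 before that of *Cxcl3*. These starts are those of the RefSeq promoter sequences. They differ from the gene starts given above, so the distances, and their differences between genes, depend on the annotation. Searched on both strands, it was found in 28 of 32817 windows of 250 bases upstream of a gene (0.0853%). ATAAAAG was found in 4.83% of these windows. The broader NF-κB consensus, which GGGAATTTCC itself meets, was found in 3.9%, among them the window of *Csf1* on the strand opposite to the gene (GGGACTTTCC, 154 bases before the start). The windows of *Pf4* and *Ppbp*, chemokine genes in the same cluster, held no match to either form of the NF-κB motif. A match is a description of the sequence and does not show binding.

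Levels are given in the normalized counts of the authors, which correct for the depth of a library but not for the length of a gene. Between 6700337 and 40754971 reads fell on the listed genes of a library, so that 1 read was worth between 0.473 normalized counts (12-week *Il10rb*+/-) and 2.43 (3-week *Il10rb*+/-). Intervals in what follows are 95% Clopper-Pearson intervals of counting error only. With 1 library per group, no difference at 1 age, or between ages within a genotype, could be tested. Of the 6 genes, 5 reached 50 normalized counts in at least 1 library, as did 11067 genes in all, and *Cxcl5* did not. The labels held for the targeted gene, as *Il10rb* had 1231, 386 and 2341 reads in the *Il10rb*+/- libraries and 8, 28 and 43 in the *Il10rb*-/- libraries at 1, 3 and 12 weeks. All 13 MΦ markers searched, among them *Fcgr1*, which encodes the CD64 of the sort, were detected in every library.

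*Cxcl2* was the most abundant of the 6 genes in every library and hardly differed by genotype. Its levels in *Il10rb*+/- MΦs were 87652, 95635 and 172948 normalized counts at 1, 3 and 12 weeks. In *Il10rb*-/- MΦs they were 92040, 92254 and 161308. Both genotypes held close levels at 1 and 3 weeks and a higher one at 12 weeks. The log2 ratio of *Il10rb*-/- over *Il10rb*+/- was 0.07 (interval 0.06 to 0.09) at 1 week, -0.05 (-0.07 to -0.04) at 3 weeks and -0.10 (-0.11 to -0.09) at 12 weeks. With scaling by total reads instead they were 0.07, -0.10 and -0.32. From 3 to 12 weeks *Cxcl2* was 1.81-fold higher in *Il10rb*+/- and 1.75-fold higher in *Il10rb*-/- MΦs. Per kb of exon, *Cxcl2* ranked between 7 and 12 among all genes of each library and took between 0.548% and 0.898% of the reads.

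*Cxcl1* was lower in the *Il10rb*-/- library at each age, and most so at 12 weeks. It had 33947, 29983 and 83965 normalized counts in *Il10rb*+/- MΦs at 1, 3 and 12 weeks. In *Il10rb*-/- MΦs it had 25846, 22786 and 37129. The log2 genotype ratio was -0.39 (-0.42 to -0.37) at 1 week and -0.40 (-0.43 to -0.36) at 3 weeks. At 12 weeks it was -1.18 (-1.19 to -1.16), a level 2.26-fold lower in *Il10rb*-/- MΦs. The level of *Cxcl1* in *Il10rb*+/- MΦs was 2.80-fold higher at 12 than at 3 weeks (log2 1.49, interval 1.46 to 1.51). The same step was 1.63-fold in *Il10rb*-/- MΦs (log2 0.70, interval 0.68 to 0.73). Of all genes past the filter, *Cxcl1* ranked at percentile 17.8, 11.3 and 13.7 by genotype ratio at 1, 3 and 12 weeks.

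*Cxcl3* was a far less abundant transcript, higher in the *Il10rb*-/- library at each age and about 10-fold higher at 12 than at 3 weeks in both genotypes. Its levels in *Il10rb*+/- MΦs were 304, 426 and 4517 normalized counts at 1, 3 and 12 weeks. Those in *Il10rb*-/- MΦs were 601, 638 and 6331. Both 12-week libraries stood above the other 4, and across ages the ranges of the genotypes overlapped. Between genotypes the log2 ratio was 0.98 (0.76 to 1.20) at 1 week, then 0.58 (0.34 to 0.83) at 3 weeks and lastly 0.49 (0.45 to 0.53). From 3 to 12 weeks the level was 10.6-fold higher in *Il10rb*+/- MΦs (log2 3.41, interval 3.19 to 3.63). In *Il10rb*-/- MΦs it was 9.93-fold higher (log2 3.31, interval 3.20 to 3.42).

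*Cxcl5*, whose product is made chiefly by epithelial cells, was close to the limit of detection. It had 0 reads in both 1-week libraries, 4 and 9 reads in *Il10rb*+/- and *Il10rb*-/- MΦs at 3 weeks, and 11 and 13 reads at 12 weeks. The log2 genotype ratio of 0.67 at 12 weeks had an interval of -0.60 to 1.97, so that no difference was detectable at this depth.

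*Csf3* was the only one of the 6 genes past 3-fold between genotypes at any age. In *Il10rb*+/- MΦs it had 37.7, 75.4 and 232 normalized counts at 1, 3 and 12 weeks (38, 31 and 490 reads). In *Il10rb*-/- MΦs it had 68.9, 118 and 944 normalized counts (46, 134 and 1483 reads). The *Il10rb*-/- library was the higher at each age, and the 12-week *Il10rb*-/- library stood far above the rest. The log2 genotype ratio was 0.87 (0.22 to 1.53) at 1 week, 0.64 (0.07 to 1.26) at 3 weeks and 2.03 (1.88 to 2.18) at 12 weeks, a 4.08-fold difference. Between 3 and 12 weeks, *Csf3* was 3.07-fold higher in *Il10rb*+/- MΦs (log2 1.62, interval 1.09 to 2.19) and 8.01-fold higher in *Il10rb*-/- MΦs (log2 3.00, interval 2.75 to 3.27).

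*Csf1* differed by genotype mainly at 3 weeks. It had 575, 482 and 794 normalized counts in *Il10rb*+/- MΦs at 1, 3 and 12 weeks, and 625, 903 and 746 in *Il10rb*-/- MΦs. The genotypes overlapped across ages, and the lowest and the highest values were both at 3 weeks. The log2 genotype ratio was 0.12 (-0.07 to 0.30) at 1 week, 0.91 (0.69 to 1.13) at 3 weeks and -0.09 (-0.20 to 0.02) at 12 weeks, so that only the 3-week level, 1.87-fold higher in *Il10rb*-/- MΦs, lay beyond counting error. The 3-week *Il10rb*+/- library, with 198 *Csf1* reads, was the shallowest of the 6.

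**Figure D1:**
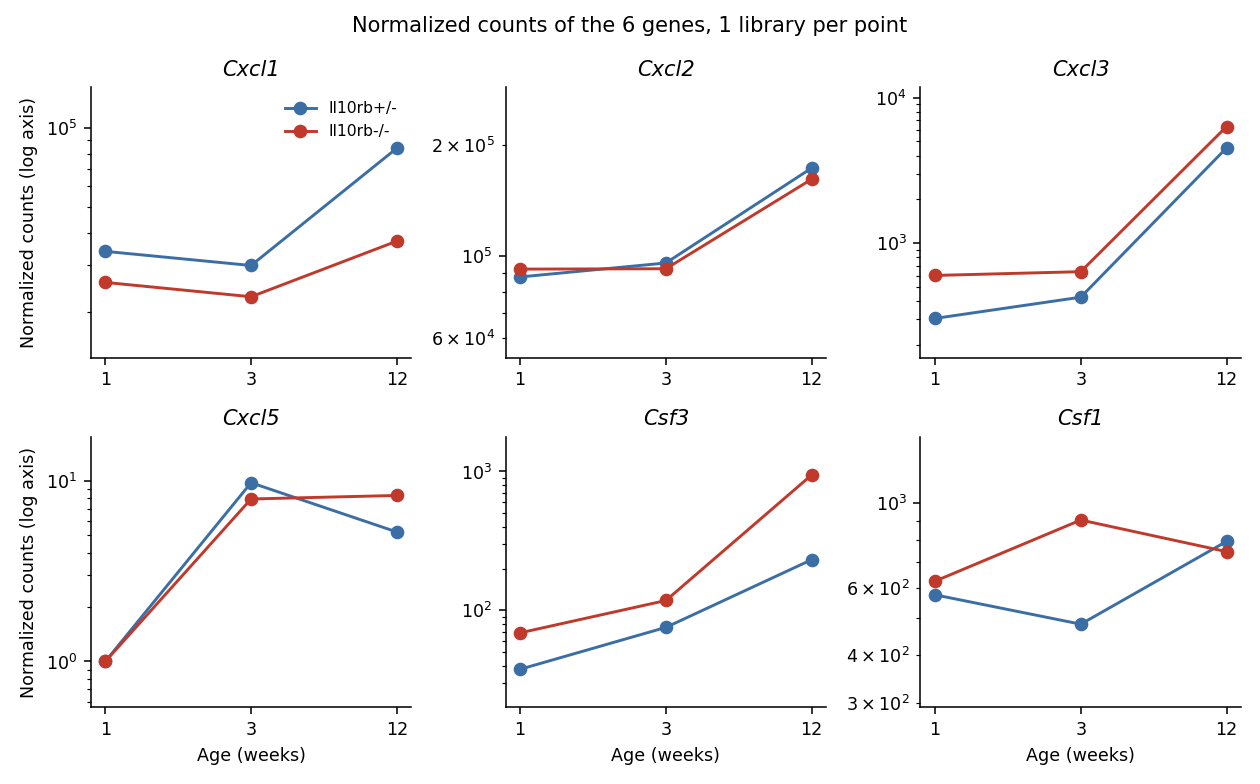
Normalized counts (log axis, its range set for each gene) of the 6 genes against age in weeks, with 1 point per library and lines that join different mice of 1 genotype. *Cxcl1*, *Cxcl2*, *Cxcl3* and *Csf3* are highest at 12 weeks in both genotypes, *Cxcl1* is lower and *Cxcl3* and *Csf3* higher in *Il10rb*-/- MΦs at each age, and the 2 *Cxcl5* points at 1 week are 0 reads shown as 1.

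Past 3-fold between genotypes were 0 of the 5 genes at 1 week, when 3.5% of the 11067 genes were. At 3 weeks the same held for 0 of 5, against 1.98% of all genes. At 12 weeks it held for 1 of 5, *Csf3*, against 14% of all genes, and with so few genes the counts do not set them apart. The median log2 ratio of the 5 genes was 0.12, 0.58 and -0.09 at 1, 3 and 12 weeks, and that of all genes -0.04, 0.02 and 0.04. From 1 to 3 weeks no member passed 3-fold in either genotype, against 6.56% of all genes in *Il10rb*+/- and 5.02% in *Il10rb*-/- MΦs. From 3 to 12 weeks *Cxcl3* and *Csf3* were over 3-fold higher in both genotypes, against 5.41% of all genes in *Il10rb*+/- and 5.75% in *Il10rb*-/- MΦs.

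Across the 3 ages, with age as a term, no gene had an adjusted p under 0.05 by limma (0% of 11067 genes). At an unadjusted p under 0.05 were 853 genes (7.71%), 3 of the 5 members among them. *Il10rb* itself had an adjusted p of 0.0616, the smallest in this limma fit, for a log2 difference of -5.68 ± 0.34 (SE). *Csf3* had a mean log2 difference of 1.17 ± 0.34 and *Cxcl3* one of 0.68 ± 0.17, both higher in *Il10rb*-/- MΦs at 3 of 3 ages, with limma adjusted p = 0.627 for each (unadjusted 0.0157 and 0.00857). *Cxcl1* had a difference of -0.66 ± 0.26, lower at 3 of 3 ages, with the same limma adjusted p (unadjusted 0.0460). For *Csf1* the difference was 0.31 ± 0.24 (limma adjusted p = 0.677) and for *Cxcl2* -0.03 ± 0.26 (0.979). The error of this fit draws on the variation of a gene's genotype difference between ages and on that of genes of like level. For *Cxcl2* the SE was 0.26, and 0.16 in limma without the mean-variance trend. A difference held at 1 age only is unlikely to pass this fit.

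**Figure D2:**
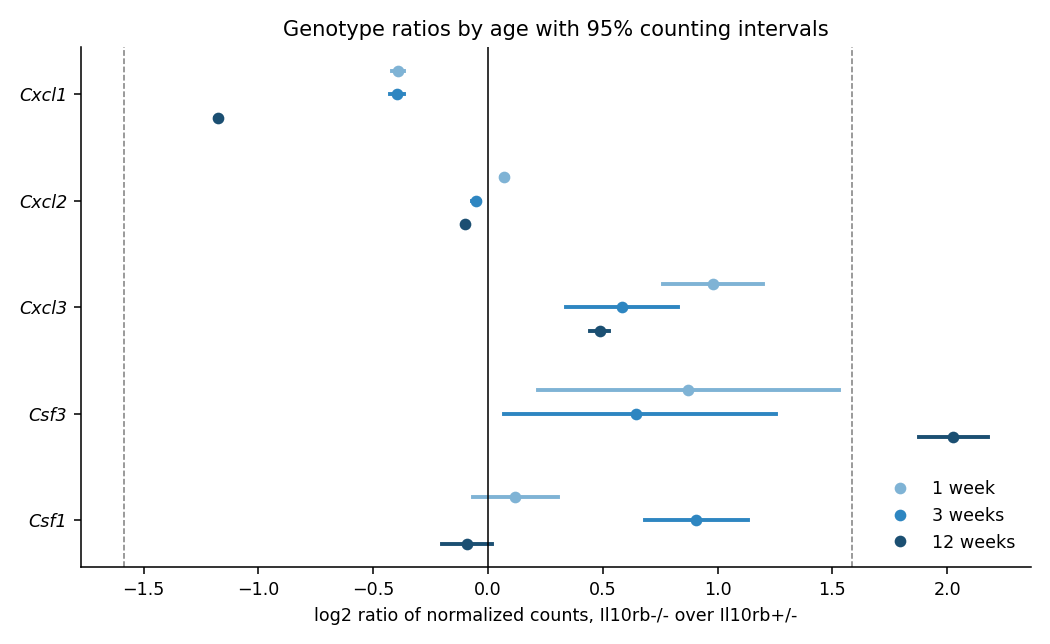
Log2 ratio of normalized counts, *Il10rb*-/- over *Il10rb*+/-, of the 5 genes past the filter at 1, 3 and 12 weeks, with bars for 95% counting intervals (some are smaller than the points) and dashed lines at 3-fold. *Csf3* at 12 weeks (2.03) alone lies past a dashed line, and *Cxcl2* stays within 0.10 of 0.

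Levels of the genes were compared with each other per kb of exon, within each library. In normalized counts per kb, *Cxcl2* lay between 42385 and 83630 and *Cxcl1* between 12153 and 44781. *Cxcl3* reached 87.0 to 182 at 1 and 3 weeks and 1291 and 1810 at 12 weeks. *Csf1* lay between 91.2 and 171 and *Csf3* between 26.7 and 668. In each library the order was thus *Cxcl2*, *Cxcl1* and then the others, far apart. *Cxcl3* and *Csf1* were the closest neighbours at 3 weeks in *Il10rb*-/- MΦs, with 182 and 171 per kb. *Csf1* exceeded *Csf3* per kb by 1.71- to 4.08-fold at 1 and 3 weeks, whereas the ratio at 12 weeks was 0.917 in *Il10rb*+/- and 0.211 in *Il10rb*-/- MΦs. The 4 chemokines together took 0.822%, 0.773% and 1.36% of the reads in *Il10rb*+/- MΦs at 1, 3 and 12 weeks, and 0.800%, 0.688% and 0.912% in *Il10rb*-/- MΦs.

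The balance of the most abundant chemokines differed by genotype in the same direction at each age. *Cxcl2* per kb exceeded *Cxcl1* per kb by 2.34-, 2.89- and 1.87-fold in *Il10rb*+/- MΦs at 1, 3 and 12 weeks. In *Il10rb*-/- MΦs the ratio was 3.23, 3.67 and 3.94. As *Cxcl2* hardly differed by genotype, the ratio mainly repeats the lower *Cxcl1* of the *Il10rb*-/- libraries. Because both genes were read in the same library, this ratio does not depend on scaling. It was higher in *Il10rb*-/- MΦs by a log2 difference of 0.46 (0.43 to 0.49) at 1 week, 0.34 (0.31 to 0.38) at 3 weeks and 1.08 (1.06 to 1.09) at 12 weeks, intervals here being normal approximations on log reads. With all 3 differences of 1 sign, the exact two-sided sign-flip permutation p could only be 0.25, the smallest that 8 sign assignments allow. This ratio was chosen after the values had been seen, so that p carries no weight as evidence.

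**Figure D3:**
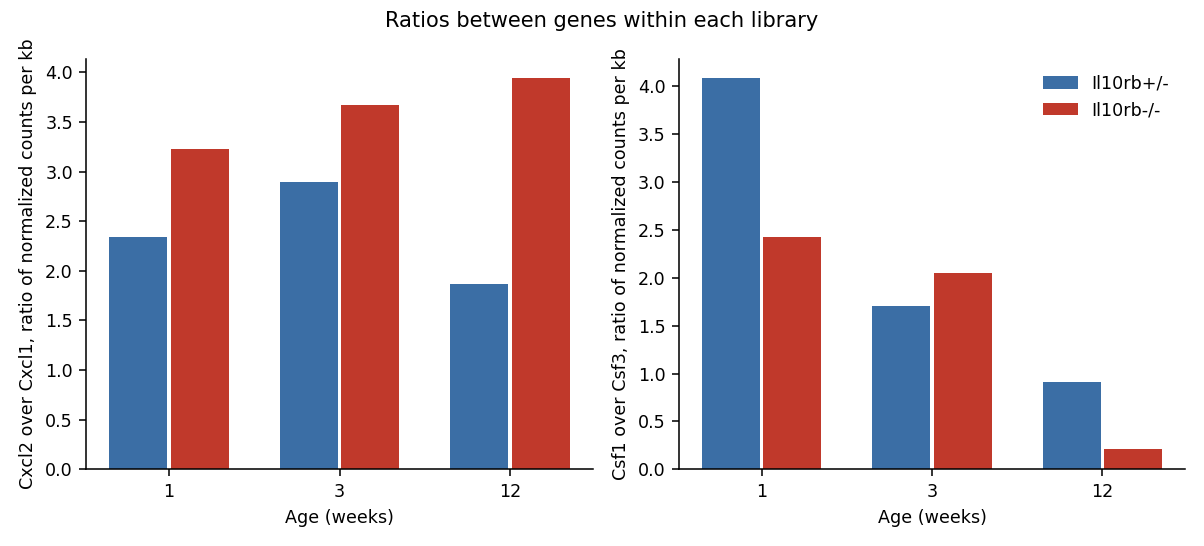
Ratios of normalized counts per kb between genes of the same library, by age in weeks and genotype, 1 library per bar: *Cxcl2* over *Cxcl1* on the left and *Csf1* over *Csf3* on the right. The *Cxcl2* to *Cxcl1* ratio is 3.23 to 3.94 in *Il10rb*-/- and 1.87 to 2.89 in *Il10rb*+/- MΦs, and the *Csf1* to *Csf3* ratio is lowest (0.211) in 12-week *Il10rb*-/- MΦs.

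The chemokine cluster spans 146579 bases and 7 genes in the order *Cxcl5*, *Ppbp*, *Pf4*, *Cxcl3*, *Cxcl15*, *Cxcl1* and *Cxcl2*, and its genes differed in direction. *Pf4* encodes platelet factor 4, a chemokine also made by resident MΦs. It had 8551, 9953 and 8082 normalized counts in *Il10rb*+/- MΦs at 1, 3 and 12 weeks, and 8792, 5989 and 56.7 in *Il10rb*-/- MΦs. The 12-week *Il10rb*-/- library alone had almost lost *Pf4*, with a log2 ratio of -7.16 (-7.47 to -6.86), a level 143-fold lower. *Ppbp*, the gene of another platelet chemokine, had 253, 181 and 376 reads in *Il10rb*+/- and 159, 250 and 0 in *Il10rb*-/- MΦs. Its level at 12 weeks was at least 93.1-fold lower in *Il10rb*-/- MΦs, taking a floor of 3 reads in that library. *Cxcl3*, the neighbour of *Pf4*, was 1.40-fold higher in the same library. *Cxcl15* was not analysed here.

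**Figure D4:**
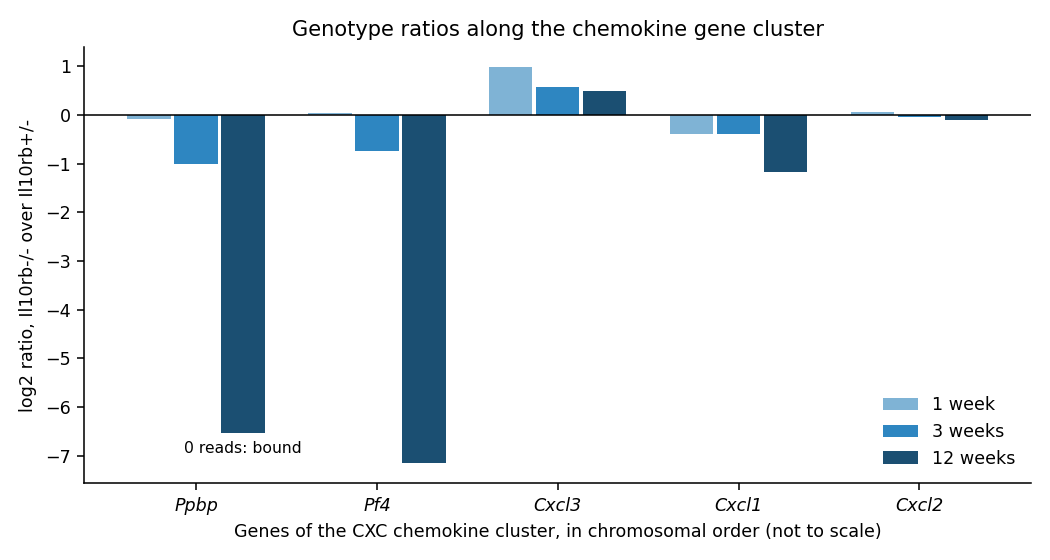
Log2 ratio of normalized counts, *Il10rb*-/- over *Il10rb*+/-, at 1, 3 and 12 weeks for 5 genes of the chemokine cluster in chromosomal order, with 1 library per group and no error bars. *Pf4* (-7.16) and *Ppbp* (0 reads, drawn at its bound) are far lower in 12-week *Il10rb*-/- MΦs, while *Cxcl3* lies above 0 and *Cxcl1* below 0 at each age.

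Of 6 receptor genes past the filter, *Cxcr2* was over 3-fold higher in *Il10rb*-/- MΦs at 1 week and *Csf3r* and *Cxcr2* were at 12 weeks. Of all genes, 3.5% passed 3-fold in either direction at 1 week and 4.03% were over 3-fold higher at 12 weeks. *Cxcr2* reached the filter in the 12-week *Il10rb*-/- library only. *Csf3r*, the G-CSF receptor of neutrophils and monocytes, had 1515, 1414 and 1420 normalized counts in *Il10rb*+/- MΦs at 1, 3 and 12 weeks, and 1559, 2120 and 6944 in *Il10rb*-/- MΦs. The log2 ratio was 0.04 (-0.07 to 0.16), 0.58 (0.45 to 0.72) and 2.29 (2.23 to 2.35), the last a 4.89-fold difference. *Csf3* and its receptor thus both stood highest in the 12-week *Il10rb*-/- library. *Cxcr2*, the receptor of the 4 chemokines, was sparse, with 6, 9 and 49 reads in *Il10rb*+/- and 16, 22 and 284 reads in *Il10rb*-/- MΦs. The log2 ratio of *Cxcr2* was 2.01 (0.58 to 3.65), -0.18 (-1.36 to 1.12) and 2.96 (2.52 to 3.43) at the 3 ages. *Csf1r*, the M-CSF receptor that defines the MΦ lineage, had 80123, 65622 and 47225 normalized counts in *Il10rb*+/- MΦs and 53060, 60398 and 46878 in *Il10rb*-/- MΦs. It was lower at 1 week (log2 -0.59) and level at 12 weeks (-0.01). *Csf2rb* and *Csf2rb2*, which encode β chains shared by the receptors of GM-CSF and related cytokines, were higher in *Il10rb*-/- MΦs at each age, with log2 ratios of 0.33, 0.46 and 1.29 for *Csf2rb* and 0.37, 0.51 and 1.14 for *Csf2rb2*. Of these 6 genes, 0 had a limma adjusted p under 0.05 across ages, and *Csf2rb* and *Csf2rb2* had unadjusted limma p of 0.0312 and 0.0180.

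Neutrophil markers moved with *Csf3*, *Csf3r* and *Cxcr2* in the 12-week *Il10rb*-/- library. Over 13 neutrophil markers in the table the summed level was 2774, 4361 and 3085 normalized counts in *Il10rb*+/- MΦs at 1, 3 and 12 weeks, and 2010, 3837 and 14533 in *Il10rb*-/- MΦs. *Csf3r*, *Cxcr2* and *Mmp9* are in this sum. At 12 weeks 8 of the 10 markers past the filter were over 3-fold higher in *Il10rb*-/- MΦs, *Csf3r* and *Cxcr2* themselves among the 8, against 4.03% of all genes. Of the 8, *Cxcr2*, *Lcn2*, *Ltf*, *Ngp*, *S100a8* and *S100a9* reached the filter in the 12-week *Il10rb*-/- library only. The filter itself thus favoured counting them as higher there. *S100a8*, a calprotectin gene of neutrophils and monocytes, went from 27 to 2628 reads between genotypes at 12 weeks. *S100a9*, its partner, went from 71 to 4563, and *Ly6g*, which defines mouse neutrophils, from 0 to 25. At 1 and 3 weeks 4 to 6 of the 13 markers were at 0 reads in each library, *Ly6g* at 0 or 1 read. Monocyte markers were mixed in this library. *Ly6c2*, *Plac8* and *Vcan* were over 3-fold higher there, although the sort took Ly6C- cells, *Ccr2* had a log2 ratio of 0.21 and *F13a1* one of -3.17. *Vcan* reached the filter in this library only, so the filter favoured counting it as higher. The 6 monocyte markers summed to 5056, 34656 and 22761 normalized counts in *Il10rb*+/- and to 11552, 30556 and 32668 in *Il10rb*-/- MΦs at 1, 3 and 12 weeks. Of the 13 MΦ markers 9 were lower and 4 higher there, and *Adgre1*, *C1qa*, *C1qb*, *C1qc* and *Cx3cr1* were over 3-fold lower, as were 9.99% of all genes. *Csf1r* (log2 -0.01) and *Fcgr1* (0.04) were level. The part of these cells in the values of *Csf3* was not tested, and in sorted bulk RNA more cells of a type and more RNA per cell cannot be told apart.

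Stromal markers, genes of cells that can also express *Cxcl1*, moved as well. The 7 genes summed to 229, 2901 and 4108 normalized counts in *Il10rb*+/- libraries of 1, 3 and 12 weeks, against 1260, 3090 and 558 in *Il10rb*-/- libraries. At 1 week 6 of the 7 were over 3-fold higher in *Il10rb*-/- MΦs and at 12 weeks 6 of 7 were over 3-fold lower. Among the 6 higher at 1 week, *Pdgfra* rests on only 2 reads against 1 in *Il10rb*+/- MΦs. Of all genes, 3.5% passed 3-fold in either direction at 1 week and 9.99% were over 3-fold lower at 12 weeks. *Pdgfra*, among the 6 lower at 12 weeks, reached the filter in the *Il10rb*+/- library of that age only. The filter itself thus favoured counting *Pdgfra* as lower. Endothelial markers summed to 2007 and 893 at 12 weeks, with 3 of 5 genes over 3-fold lower (*Cdh5*, *Tek* and *Vwf*). Of these, *Cdh5* and *Tek* reached the filter in the 12-week *Il10rb*+/- library only, so the filter favoured counting them as lower. Epithelial markers, over 9 genes, summed to 184, 1555 and 916 in *Il10rb*+/- and to 956, 801 and 2243 in *Il10rb*-/- libraries of 1, 3 and 12 weeks. Their part in the values of the chemokines was not tested.

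Of the cytokines that induce these genes in many cells, IL-1 transcripts were higher in *Il10rb*-/- MΦs at each age. *Il1b* had 44268, 77011 and 159466 normalized counts in *Il10rb*+/- MΦs at 1, 3 and 12 weeks, and 66014, 122372 and 556585 in *Il10rb*-/- MΦs. The log2 ratio of *Il1b* was 0.58, 0.67 and 1.80. *Il1a* had log2 ratios of 0.25 (0.21 to 0.30), 2.10 (2.01 to 2.19) and 2.42 (2.40 to 2.43). *Tnf* went the other way, with -0.83, -0.00 and -0.84. *Il6* had 115, 277 and 3228 reads in *Il10rb*+/- and 185, 726 and 14204 in *Il10rb*-/- MΦs, with log2 ratios of 1.28, -0.08 and 2.57. *Il17a*, the gene of a T cell cytokine that induces CXCR2 ligands and G-CSF in tissue cells, had 346 reads in 12-week *Il10rb*-/- MΦs, 10 in those of 3 weeks and 0 or 1 in the other 4 libraries, at least 155-fold higher at 12 weeks. Of the 12 genes of this group 4 were over 3-fold higher in *Il10rb*-/- MΦs at 3 weeks, when 1.34% of all genes were (*Il17a*, *Il17f*, *Il1a* and *Il22*, of which *Il17a* rests on 10 reads against 0, *Il17f* on 30 against 1 and *Il22* on 48 against 2). At 12 weeks 5 were (*Il17a*, *Il17f*, *Il1a*, *Il1b* and *Il6*), against 4.03% of all genes, and *Il17rc* was over 3-fold lower. *Il17a* and *Il17f* reached the filter in the 12-week *Il10rb*-/- library only, so the filter itself favoured counting them as higher there. At 1 week *Il22* (8 reads against 93 in *Il10rb*+/- MΦs) and *Il17f* (3 against 15) were over 3-fold lower and *Il17rc* (41 against 20) over 3-fold higher. None of the 12 had a limma adjusted p under 0.05 across ages, and 3 had an unadjusted one.

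Of 15 genes of the NF-κB pathway and its response, 11 had a ratio above 0 at each age taken on its own, not always the same ones, against 46.0%, 52.1% and 52.0% of all genes at 1, 3 and 12 weeks. Only *Ptgs2*, the gene of the inducible cyclooxygenase, was over 3-fold higher at 12 weeks (log2 2.76, interval 2.75 to 2.77) and none was at 1 or 3 weeks. Their median log2 ratio was 0.26, 0.17 and 0.22 at 1, 3 and 12 weeks. Scaling by total reads, which takes the 12-week median of all genes from 0.04 to -0.19, lowers each 12-week ratio by the same amount. *Nfkbia* and *Tnfaip3*, feedback inhibitors of the pathway, had log2 ratios between -0.06 and 0.18 and between -0.23 and 0.17. *Nfkbiz*, a cofactor that many secondary response genes need, had -0.68, -0.11 and 0.01. By limma 0 of the 15 were called and 6 had an unadjusted p under 0.05 (40%). None of 9 genes of mRNA decay and stability passed 3-fold at any age. Among them *Zfp36*, which encodes tristetraprolin, a protein that destabilises chemokine and cytokine mRNAs, had log2 ratios of 0.16, -0.19 and -0.07.

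**Figure D5:**
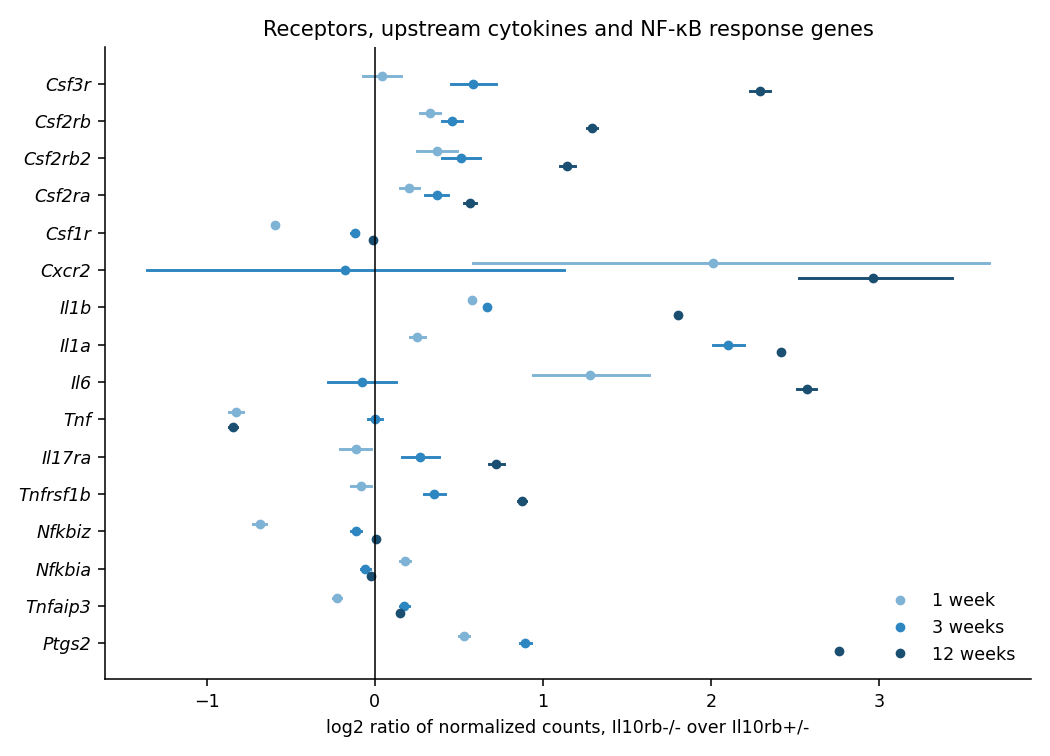
Log2 ratio of normalized counts, *Il10rb*-/- over *Il10rb*+/-, at 1, 3 and 12 weeks for receptors, inducing cytokines and NF-κB response genes, with bars for 95% counting intervals. *Csf3r*, *Cxcr2*, *Il1b*, *Il1a*, *Il6* and *Ptgs2* lie above 1.58 (3-fold) at 12 weeks, while *Nfkbia*, *Nfkbiz* and *Csf1r* are near 0 there.

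Other haematopoietic growth factors were sparse. *Csf2*, which encodes GM-CSF, had 39, 2 and 97 reads in *Il10rb*+/- and 44, 20 and 73 in *Il10rb*-/- MΦs, with a log2 ratio of 0.02 (-0.44 to 0.47) at 12 weeks. *Kitl*, the gene of stem cell factor, was lower in 12-week *Il10rb*-/- MΦs at 47 reads against 955 (log2 -3.92, interval -4.37 to -3.49).

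Immediate early and heat shock genes, which cell isolation can induce together with *Cxcl1* and *Cxcl2*, were abundant in all libraries. In *Il10rb*+/- MΦs 12 such genes summed to 577745, 994080 and 1119944 normalized counts at 1, 3 and 12 weeks. The sums in *Il10rb*-/- MΦs were 580588, 880877 and 756307. None passed 3-fold, and 11 of 12 were lower in *Il10rb*-/- MΦs at 12 weeks, when 52.0% of all genes had a ratio above 0. *Egr1*, for example, had a log2 ratio of -1.48 and *Fos* one of -0.23 at 12 weeks. Like *Cxcl1* and *Cxcl2*, the sum was higher at 12 than at 1 week in both genotypes, but the steps between differed. From 1 to 3 weeks the sum was higher in both genotypes, while *Cxcl1* was lower. From 3 to 12 weeks in *Il10rb*-/- MΦs the sum was lower, while *Cxcl1* and *Cxcl2* were higher. The part of cell isolation in the levels of *Cxcl1* and *Cxcl2* was not tested.

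Across the 6 libraries the members followed different courses. As a description over libraries that share age and genotype, Pearson's r of log2 values was 0.972 for *Cxcl2* with *Cxcl3* and 0.932 for *Cxcl3* with *Csf3*. It was 0.802 for *Cxcl1* with *Cxcl2* and 0.371 for *Cxcl1* with *Csf3*, and between 0.194 and 0.551 for *Csf1* with the other 4. Outside the 6 genes, *Cxcl1* was closest to *Pou2af1* (0.993), *Trib2* (0.980) and *Cr2* (0.975). *Cxcl2* was closest to *Kdr* (0.996), *Hmgn3* (0.994) and *Alpk2* (0.993), and among the genes closest to *Cxcl3* were *S1pr3* (0.997) and *Gramd1b* (0.995). *Csf3* was closest to *Eif6* (0.999), *Dym* (0.997) and *Abcb1b* (0.997), and *Csf1* to *Bckdhb* (0.948), *Socs7* (0.937) and *Rnf187* (0.917). With 6 points and 11067 genes searched, values of this size carry no weight as evidence of a relation.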

How the data were processed

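Libraries of sorted colonic MΦs fell into groups by their labelled age and genotype, 1 library per group. The labels name a SMART-Seq kit and the methods oligo dT beads, and the pools at 1 week are given as 3-5 mice in the labels and 4 to 5 in the legend. Per the labels and methods, the authors trimmed reads with Trim Galore, aligned them to mm10 with TopHat, counted them with HTSeq and normalized them with DESeq. Versions, annotation and strand setting are not given in the sources used here. As deposited, each value is a gene's normalized signal, not scaled by length, with a count of 0 shown as 1. All other values were whole multiples (within 0.01 of a read) of 1 step per library, from which reads were read back.

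Ratios were taken on the normalized signal. Intervals are Clopper-Pearson (95%), from the reads of both libraries, and a gene at 0 was bounded with 3 reads. Genes at 50 or more in at least 1 library were kept. Genotype was tested across ages with limma 3.58.1 (R 4.3.3) on log2(value + 1), with age as a term, a mean-variance trend, 2 residual degrees of freedom and Benjamini-Hochberg adjustment over 11067 genes. Folds from that fit are on this log2 scale. It was tested on simulated data. Other steps used matplotlib 3.10.9, pandas 2.3.3, scipy 1.17.1 and numpy 2.4.6 in Python 3.11.15. Gene coordinates and exon lengths are from GENCODE (GRCm38). The members and gene lists were chosen with earlier results of these data known. Named were all members, *Il10rb*, the 3 genes most like each member, and of each list up to 4 genes of highest mean level plus those past 3-fold the same way at 3 and 12 weeks; *Csf3r*, *Cxcr2*, *Il6*, *Egr1*, *Fcgr1* and other list genes outside this rule were named after their values were seen. Some items that the rule would name are not reported here. Alternatives were other pseudocounts, filters, scalings, fold thresholds, limma without trend and leaving out each age.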

Additional observations from a re-analysis of the deposited data

Results flagged for a closer look

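*Cxcl2* and *Csf1* had effects of opposite sign in groups under the same contrast, and with 1 library per group neither difference was tested. *Cxcl2* had a log2 genotype ratio of 0.070 at 1 week, -0.052 at 3 weeks and -0.10 at 12 weeks. *Csf1* had a log2 ratio of 3 over 1 week of -0.26 in *Il10rb*+/- and 0.53 in *Il10rb*-/- MΦs. For 12 over 3 weeks it had 0.72 in *Il10rb*+/- and -0.28 in *Il10rb*-/- MΦs, and all of these *Csf1* ratios involve a 3-week library, of which the *Il10rb*+/- one was the shallowest. Groups of 1 library allow no check for a sample far from its group.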

How the results depend on the processing

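The number of genes called across ages by limma, 0 with 853 at an unadjusted p under 0.05, became 1 (*Il10rb*) with a pseudocount of 10, and between 3 and 61 when 1 age was left out: 20 without 1 week, 3 without 3 weeks and 61 without 12 weeks. It stayed at 0 under the other 5 alternatives, with 649 to 978 genes at an unadjusted p under 0.05. No member was called under any of these 9 alternatives, and the smallest adjusted p of a member was 0.163 (*Cxcl3* without 12 weeks). At an unadjusted p under 0.05 were *Csf3*, *Cxcl1* and *Cxcl3* with all ages, *Csf3* and *Cxcl3* without the filter and without the trend, *Csf3* without 1 week, *Csf3* and *Cxcl3* without 3 weeks, and *Cxcl3* and *Csf1* without 12 weeks, so that *Cxcl1* was lost under all 5 of these alternatives. The limma difference of *Cxcl2* changed sign, from -0.03 to 0.0093, without 12 weeks, and its ratio of 3 over 1 week in *Il10rb*+/- MΦs from 0.13 to -0.012 with scaling by total reads. At a 2-fold threshold 2 members passed at 12 weeks between genotypes (*Cxcl1* and *Csf3*, with 24.6% of all genes) and 1 from 1 to 3 weeks in *Il10rb*+/- MΦs (*Csf3*). Of the 2 members past 3-fold from 3 to 12 weeks in *Il10rb*+/- MΦs, 1 (*Cxcl3*) was left with a pseudocount of 10 and 1 with scaling by total reads.

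Scaling by total reads moved the median log2 ratio of all genes from 0.04 to -0.19 between genotypes at 12 weeks, and from 0.05 to -0.36 from 3 to 12 weeks in *Il10rb*-/- MΦs. Of the other values, 44 limma differences kept their sign and were not called, though some moved by more than their SE. *Csf1* went from 0.31 ± 0.24 to 0.01 without 3 weeks, and *Csf3* from 1.17 ± 0.34 to 0.75 without 12 weeks. Of the ratios, 75 stayed within their counting intervals and 29 moved beyond counting error. Among the 29, 2 ratios of 3 over 1 week in *Il10rb*-/- MΦs whose intervals spanned 0 changed sign with scaling by total reads, *Cxcl2* from 0.0034 to -0.18 and *Cxcl3* from 0.09 to -0.10. The cause was not tested. No paired analysis was possible because each group has 1 library and no replicate numbers; age is already a term of the fit. The count models listed as alternatives were not run. They were left out because each 0 had been replaced by 1, so that the reads read back were not accepted as raw counts for such models. Counts of 38 and 31 reads limit *Csf3* at 1 and 3 weeks in *Il10rb*+/- MΦs, and *Cxcl5* was too sparse for any comparison.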
